A study of Mus musculus with 8 samples.

Results

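The genes described here are 40 genes of the autophagy machinery, measured in memory CD4 T cells with and without Rictor. They were chosen by name from the steps of autophagy, though with earlier results of these data known. Each is represented by its brightest probe set among those annotated to that gene alone. Of the 40 genes, 38 had a probe set of their own and 37 were bright enough to be tested, out of 11217 genes tested in all. The 3 that were not tested are Atg4c, a protease of the conjugation step whose signals lay between 10.1 and 14.1, Bnip3l, a mitophagy receptor whose 3 probe sets also match its pseudogene Bnip3l-ps, and the cargo receptor Optn, which is not analysed here.

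Mice of both genotypes, Rictor-null (written Rictor-/- in the series title) and wild-type (WT), had received LCMV Armstrong, which causes an acute viral infection. At day 60 polyclonal memory CD4 T cells were sorted from spleen into T follicular helper cells (Tfh) and T helper 1 cells (Th1), which gave the groups Rictor-null Tfh, WT Tfh, Rictor-null Th1 and WT Th1. Each group had 2 biological replicates, the RNA of 10 or more mice was pooled for every array, and 100 ng of total RNA was labelled per array. The part of Rictor that was deleted, the driver of the deletion, the sort gates and the age and sex of the mice are not stated in the labels or design text used here.

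In autophagy a cell encloses part of its own cytoplasm in a membrane sac, the autophagosome, and delivers it to the lysosome for breakdown. The kinase complex of ULK1 starts the process, a lipid kinase complex around PIK3C3 and Beclin marks the membrane, ATG9 and ATG2 supply lipid, and a conjugation cascade attaches the small ATG8 proteins, which cargo receptors such as p62 bind. Memory T cells that lack core autophagy genes are known to survive poorly. Rictor defines mTOR complex 2, which phosphorylates AKT. AKT in turn holds FOXO transcription factors in the cytoplasm, and FOXO factors are known to act on several autophagy genes. The other mTOR complex restrains ULK1 and TFEB, a transcription factor of lysosome and autophagy genes.

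Promoter sequences are shown for the 4 autophagy genes whose signal was higher in Rictor-null than in WT Tfh cells, the comparison with most member calls in 1 direction. They come from RefSeq on GRCm38.p6 and hold the 250 bases before a transcription start and the first 10 bases after it, 5′ to 3′ on the strand of the gene. Capitals mark a match to the short FOXO motif TGTTTA, here read as its reverse complement. The regions are chr6:129532942-129533201 on the plus strand for Gabarapl1, chr11:50210811-50211070 on the minus strand for Sqstm1, chr5:142629334-142629593 on the plus strand for Wipi2 and chr15:101284051-101284310 on the plus strand for Atg101.
Gabarapl1: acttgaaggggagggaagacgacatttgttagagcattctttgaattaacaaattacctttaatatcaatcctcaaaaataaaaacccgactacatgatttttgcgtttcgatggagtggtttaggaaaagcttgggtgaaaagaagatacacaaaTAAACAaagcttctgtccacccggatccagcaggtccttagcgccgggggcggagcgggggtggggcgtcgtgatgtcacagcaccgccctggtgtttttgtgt
Sqstm1: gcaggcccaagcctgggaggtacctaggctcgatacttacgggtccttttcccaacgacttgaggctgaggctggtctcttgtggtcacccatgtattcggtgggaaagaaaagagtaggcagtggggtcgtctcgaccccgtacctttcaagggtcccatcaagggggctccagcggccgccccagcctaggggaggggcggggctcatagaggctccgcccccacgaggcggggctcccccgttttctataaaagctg
Wipi2: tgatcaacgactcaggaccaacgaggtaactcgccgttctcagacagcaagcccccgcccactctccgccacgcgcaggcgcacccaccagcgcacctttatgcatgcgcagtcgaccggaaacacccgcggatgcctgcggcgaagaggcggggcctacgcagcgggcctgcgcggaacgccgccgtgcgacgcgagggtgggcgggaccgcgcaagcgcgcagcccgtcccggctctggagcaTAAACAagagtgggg
Atg101: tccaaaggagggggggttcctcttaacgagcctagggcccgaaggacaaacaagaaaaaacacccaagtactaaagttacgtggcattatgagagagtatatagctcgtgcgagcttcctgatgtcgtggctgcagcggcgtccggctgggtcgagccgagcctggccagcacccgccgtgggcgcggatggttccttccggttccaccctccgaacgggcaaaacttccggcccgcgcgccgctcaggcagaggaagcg

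The promoter table held 39 windows of 300 bases for 33 of the 40 genes, and 4 motifs were searched on both strands. The short FOXO motif TGTTTA was found in the windows of Gabarapl1, 94 bases before the start, and of Wipi2, 5 bases before it, and also in those of Ambra1 and Atg4a. That is 10.3% of the member windows against 13.4% of all 32851 windows in the table, so the motif was no more common among these genes. TGTTTA was added after the windows had been read, and it lies inside the longer FOXO motif TGTTTAC, which was in 0 of the 39 member windows and in 3.65% of all windows. The E-box core CACGTG, a sequence that TFEB and related factors bind, was in 12.8% of the member windows (Atg14, Atg3, Atg5, Atg7 and Bnip3) against 7.15% of all. The antioxidant response core TGACNNNGC was in 10.3% of the member windows (Atg13, Map1lc3b, Tax1bp1 and Ulk2) against 12.4% of all. Neither CACGTG nor TGACNNNGC was in the windows of the 4 genes shown.

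Values are probe set signals (fluorescence intensity, linear scale). Differences are log2 differences of signal plus 32 between group means with the standard error (SE) of a limma fit to all 8 arrays, and adjusted p is limma's, corrected by Benjamini-Hochberg across the 11217 genes. The words rose, fell, higher and lower are used where the adjusted p was under 0.05. Array medians lay between 35.7 and 37.7, and the median member signal lay between 186 and 224 per array. The typical SD between replicates, on the log2 scale, was 0.0661 for Rictor-null Tfh and 0.033 to 0.0466 for the other groups over all genes. Over the 37 autophagy genes it was 0.0617 for WT Th1, 0.0519 for Rictor-null Tfh and 0.0362 and 0.0382 for the others. A pair of arrays stood apart on the third principal component of all genes (18.3% of the variance), Rictor-null Tfh replicate 2 at -12.4 and WT Th1 replicate 1 at -6.49, against -0.599 to 6.47 for the others. In RNA from sorted populations, fewer cells of a type and less RNA per cell cannot be told apart.

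The sorted cells carried the T cell markers Cd3e (2588 to 2845) and Cd4 (414 to 463) on every array. Cxcr5, the receptor that defines Tfh cells, was 241 and 297 in Rictor-null Tfh cells and 183 and 179 in WT Tfh cells, against 46.8 to 55.7 in Th1 cells. The 7 Tfh markers summed to 5640 to 5810 in Rictor-null Tfh, 3880 to 3970 in WT Tfh, 3870 to 4040 in Rictor-null Th1 and 2930 to 3050 in WT Th1 cells, so the sum was above WT in both Rictor-null groups and WT Tfh overlapped Rictor-null Th1. Cxcr5 and Bcl6 separated the cell types in both genotypes, whereas Icos read 2433 and 2570 on the Rictor-null Th1 arrays but only 2130 and 2067 on the WT Tfh arrays. The defining Th1 genes Tbx21 (422 to 465) and Ifng (1421 to 1605) lay in narrow ranges over all 4 groups, so they did not separate the cells labelled Th1 from those labelled Tfh. The 7 Th1 markers summed to 18100 to 18400 in Rictor-null Tfh, 17100 in WT Tfh, 17400 to 18000 in Rictor-null Th1 and 15300 to 15600 in WT Th1 cells. In each genotype this sum was larger in Tfh cells, against the label. Ccl5, its brightest gene, ran that way (8163 and 8173 in WT Tfh against 6607 and 6436 in WT Th1 cells). Cxcr6 ran with the label (357 to 489 in Th1 against 255 to 342 in Tfh cells). Rictor itself had 5 probe sets, and its brightest differed between genotypes by 0.02 in Tfh cells and -0.07 in Th1 cells, and its dimmest rose by 0.30 in Tfh cells (limma adjusted p = 0.0353), so these probe sets do not check the genotype label. The summed signal of 8 myeloid markers, of which 4 passed the filter and Itgam, Adgre1, Fcgr3 and Clec4a2 did not, was 392 to 442 in Rictor-null Tfh, 310 to 322 in WT Tfh, 339 to 391 in Rictor-null Th1 and 265 to 283 in WT Th1. The 6 measured B cell markers, carried mostly by Ighm and with Cd79a, Ms4a1 and Pax5 below the filter, summed to 2640 to 3000, 2390 to 2440, 1990 to 2050 and 2450 to 2590 in the same order. The myeloid sum, above WT in both Rictor-null groups, followed mostly Cybb (157 and 162 against 91.2 and 86.3 in Tfh, 194 and 156 against 80.6 and 80.8 in Th1 cells). In Tfh cells Cd68 (74.8 and 91.8 against 52.2 and 60.3), Fcgr3 (31 and 41.4 against 24.8 and 26.8) and Csf1r (53 and 59.7 against 51.6 and 51) were above WT as well. Lyz2 (31.7 and 34.7 against 39.7 and 43.5), Itgam and Adgre1 were below WT there, and Clec4a2 overlapped. Without Cybb the myeloid sum was 235 and 280 against 219 and 236 in Tfh and 196 and 184 against 202 and 185 in Th1 cells. The part of these markers in the differences below was not tested.

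Rictor-null Tfh cells had more signal than WT Tfh cells for 4 of the 37 autophagy genes (10.8%), and 0 fell. Among all genes tested, 11.3% rose and 2.31% fell in the same comparison, so the share of autophagy genes that rose was near the background. The 4 were Gabarapl1, an ATG8 protein, Sqstm1, which encodes the cargo receptor p62, Wipi2, which reads the lipid mark on the forming membrane, and Atg101, a subunit of the ULK1 complex. The median difference over the 37 genes was 0.06 against 0.04 over all genes, and 27 of the 37 differences were above 0 (73%, against 60.7% of all genes). At an unadjusted p under 0.05, 12 of the 37 (32.4%) and 30.3% of all genes passed in either direction. Under 4 alternatives (quantile normalization, no filter, a pseudocount of 1 and the mean of probe sets) 1 gene, Wipi1, was also called lower, at -0.27 to -0.18 with adjusted p of 0.0335 to 0.0383.

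In Th1 cells 1 of the 37 genes (2.7%) rose without Rictor, the ULK1 complex scaffold Rb1cc1, and 0 fell. Over all genes 7.55% rose and 2.97% fell in that comparison. The median difference of the 37 genes was 0.03 against -0.00 over all genes, 25 were above 0 (67.6%, against 50%), and 10 (27%) passed at an unadjusted p under 0.05, against 24.8% of all genes. Differences of more than 0.25 in size were found for 2 autophagy genes (5.41%) in Th1 cells and 4 (10.8%) in Tfh cells, against 10.9% and 11.4% of all genes. The SE behind a member's difference had a median of 0.0655 and ran from 0.0528 to 0.236, the highest belonging to Rb1cc1.

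**Figure D1:**
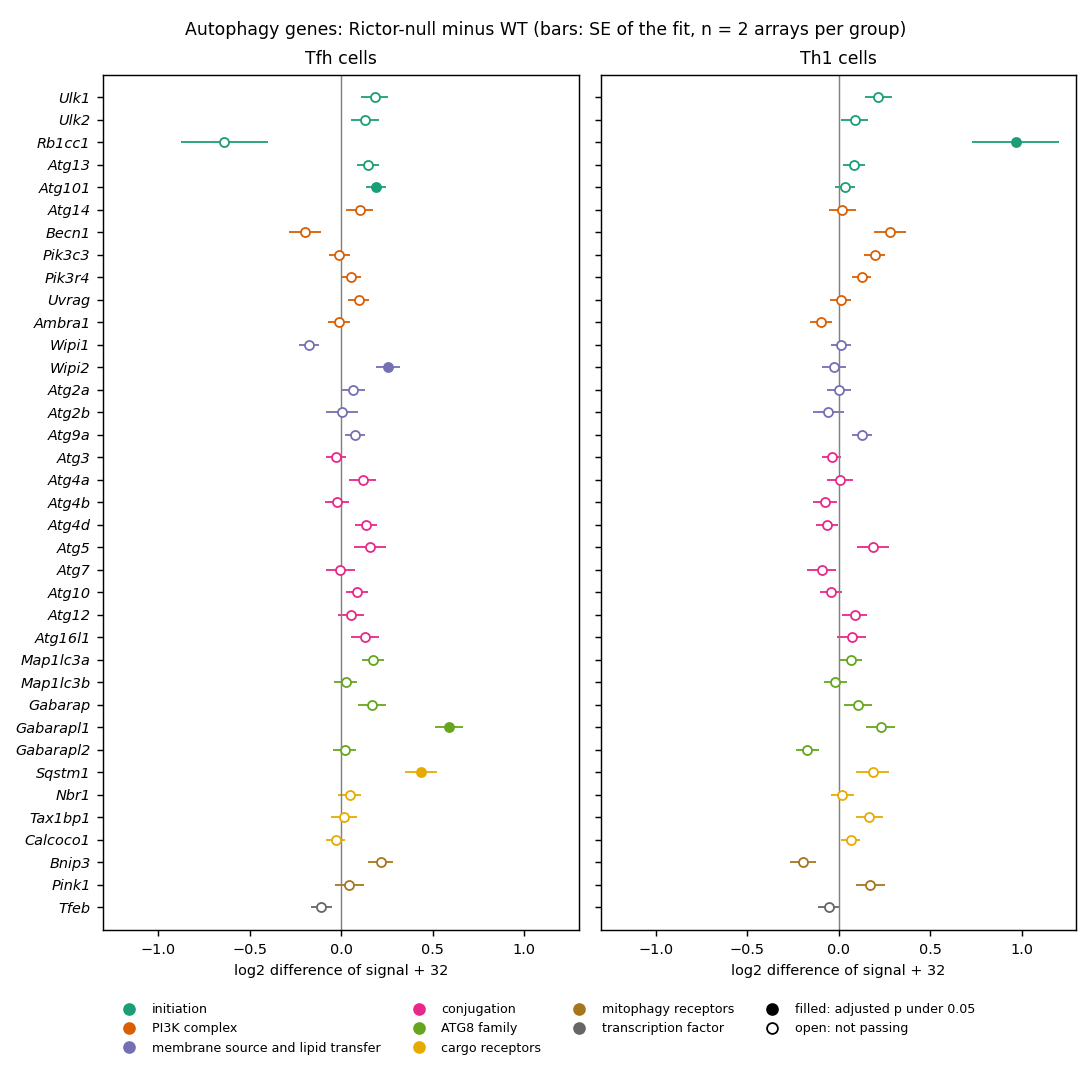
Log2 difference, Rictor-null minus WT, of signal plus 32 for the 37 tested autophagy genes in Tfh cells (left) and Th1 cells (right), coloured by role. Bars are the SE of the fit (n = 2 arrays per group) and filled points had an adjusted p under 0.05, which holds for 4 genes on the left and 1 on the right.

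Gabarapl1 made the clearest rise of the autophagy genes in Tfh cells. Its protein is one of the ATG8 family, which is attached to the growing membrane. The signals were 133 and 135 on the WT and 207 and 230 on the Rictor-null Tfh arrays, and 167 and 141 on the WT and 179 and 192 on the Rictor-null Th1 arrays. Both Rictor-null Tfh arrays were the highest of the 8 and both WT Tfh arrays the lowest. The difference in Tfh cells was 0.59 ± 0.0773 (SE, 95% interval 0.42 to 0.76), a 1.51-fold rise with an adjusted p from limma of 0.000637. In Th1 cells the Rictor-null arrays were also above the WT arrays, with a difference of 0.23 and an adjusted p of 0.0893.

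A second, dimmer Gabarapl1 probe set had the same order of groups. It read 27.3 and 29.0 on the WT and 66.4 and 63.2 on the Rictor-null Tfh arrays, and 39.8 and 40.5 on the WT and 56.8 and 56.4 on the Rictor-null Th1 arrays. None of the 4 groups overlapped on it. It was above the array median on 6 arrays, while both WT Tfh signals lay below their array medians of 37.3 and 37.7. The Rictor-null difference was 0.69 in Tfh cells (limma adjusted p = 0.000102, over the 19671 probe sets with 1 gene symbol that passed the filter) and 0.30 in Th1 cells (adjusted p = 0.00992). The test of the difference between those effects gave 0.39 with an adjusted p of 0.0464 on this probe set, and 0.36 with 0.136 on the brighter one. The rise in Tfh cells was called under all 19 alternative settings tried, with adjusted p no higher than 0.0109.

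Of the other ATG8 genes, Map1lc3b, whose product LC3B is the usual marker of autophagosomes, had the brightest probe set of the 37. Its signals were 1755 and 1761 on the WT and 1836 and 1743 on the Rictor-null Tfh arrays, and 1695 and 1824 on the WT and 1797 and 1675 on the Rictor-null Th1 arrays. All 4 groups overlapped. The genotype difference was 0.02 in Tfh cells (95% interval -0.11 to 0.16) and -0.02 in Th1 cells (-0.16 to 0.12). A dim probe set of Map1lc3b was lower in Rictor-null than in WT Th1 cells, with a difference of -0.31 (limma adjusted p = 0.0306), while its other probe sets did not pass in either cell type. Map1lc3a (0.18, adjusted p = 0.0813) and Gabarap (0.17, adjusted p = 0.171) were above WT in Tfh cells without passing the test.

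Sqstm1 was the other gene with a rise in Tfh cells on more than 1 probe set. Its product p62 carries ubiquitin-tagged cargo to the autophagosome and is itself degraded there. The signals were 638 and 619 on the WT and 784 and 948 on the Rictor-null Tfh arrays, and 705 and 669 on the WT and 842 and 732 on the Rictor-null Th1 arrays. The Rictor-null Tfh arrays lay above the WT Tfh arrays but overlapped the Rictor-null Th1 arrays. The difference in Tfh cells was 0.44 ± 0.0901, a 1.35-fold rise (limma adjusted p = 0.0106), and in Th1 cells it was 0.19 (adjusted p = 0.231). Without Rictor-null Tfh replicate 2 the Tfh difference was 0.30 with an adjusted p of 0.0565, and without WT Tfh replicate 1 or 2 the adjusted p was 0.0666 or 0.0926.

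The dimmer Sqstm1 probe set read 81.3 and 93.7 on the WT and 120 and 129 on the Rictor-null Tfh arrays, and 98.2 and 108 on the WT and 82.9 and 104 on the Rictor-null Th1 arrays. Only the Rictor-null Tfh arrays stood above the rest on it. Its difference was 0.39 in Tfh cells (limma adjusted p = 0.0263) against -0.11 in Th1 cells (adjusted p = 0.5). The brightest cargo receptor without a call was Nbr1, a p62 relative, at 710 and 712 on the WT and 709 and 762 on the Rictor-null Tfh arrays, and 746 and 795 on the WT and 795 and 769 on the Rictor-null Th1 arrays. Its genotype difference was 0.05 in Tfh and 0.02 in Th1 cells. Tax1bp1 and Calcoco1 differed by 0.02 and -0.03 in Tfh cells and by 0.17 and 0.07 in Th1 cells, and neither passed.

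Wipi2 signals were 223 and 222 on the WT and 264 and 280 on the Rictor-null Tfh arrays, and 209 and 236 on the WT and 213 and 224 on the Rictor-null Th1 arrays. Rictor-null Tfh was the only group of the 4 that stood apart. The difference was 0.26 ± 0.0659 in Tfh cells, a 1.19-fold rise (limma adjusted p = 0.0284), against -0.02 in Th1 cells (adjusted p = 0.867). Both other Wipi2 probe sets had positive differences in Tfh cells, 0.19 and 0.01, that did not pass. With the mean of its probe sets the difference was 0.15 with an adjusted p of 0.0589, and after quantile normalization 0.18 with 0.102. Leaving out both arrays that stood apart also ended the call. Without Rictor-null Tfh replicate 2 the adjusted p was 0.126, and without WT Tfh replicate 1 or 2 it was 0.156 or 0.164.

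The other genes of membrane source and lipid transfer were not called between genotypes with all 8 arrays and the settings given above. Wipi1, the closest relative of Wipi2, ran the other way in Tfh cells at -0.18 with an adjusted p of 0.0592. Atg2a, a lipid transfer protein and the brightest of this role without a call, read 167 and 150 on the WT and 168 and 166 on the Rictor-null Tfh arrays, and 177 and 164 on the WT and 177 and 164 on the Rictor-null Th1 arrays. Its genotype difference was 0.06 in Tfh and 0.00 in Th1 cells.

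Within the ULK1 complex, Atg101 signals were 112 and 116 on the WT and 138 and 132 on the Rictor-null Tfh arrays, and 143 and 137 on the WT and 144 and 144 on the Rictor-null Th1 arrays. WT Tfh was the low group, and Rictor-null Tfh lay near the Th1 groups. The difference in Tfh cells was 0.19 ± 0.0559 (1.14-fold, limma adjusted p = 0.0464), while Th1 cells had 0.03 (adjusted p = 0.753). This call was at the threshold, and leaving out any 1 of the 8 arrays ended it, with adjusted p between 0.0615 and 0.261. After quantile normalization it was 0.12 (adjusted p = 0.221), and array weights (0.0668), the replicate block (0.0792) and a fit of only the groups compared (0.093) also ended the call. So did leaving out both arrays that stood apart. The kinase gene Ulk1 itself read 226 and 221 on the WT and 247 and 270 on the Rictor-null Tfh arrays, and 246 and 228 on the WT and 299 and 263 on the Rictor-null Th1 arrays. The Rictor-null arrays were above the WT arrays in both cell types, by 0.18 (adjusted p = 0.118) and 0.22 (adjusted p = 0.0829), without passing. The second Ulk1 probe set differed by 0.04 and 0.05.

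Rb1cc1, which encodes FIP200, the scaffold of the ULK1 complex, had the largest spread of the 37 genes, with a residual SD of 0.376 on the log2 scale. Its brightest probe set read 486 and 366 on the WT and 372 and 179 on the Rictor-null Tfh arrays, and 183 and 237 on the WT and 448 and 430 on the Rictor-null Th1 arrays. WT Th1 was the low group, and Rictor-null Tfh held both the lowest array of the 8 and one above every WT Th1 array. In Th1 cells the rise without Rictor was 0.97 ± 0.236, or 1.96-fold (limma adjusted p = 0.0244). In Tfh cells the difference was -0.64 ± 0.236 (adjusted p = 0.0986), and the groups overlapped. Without Rictor-null Tfh replicate 1 it was -1.11, which rests on the 179 of replicate 2 alone, an array of the pair that stood apart. The 372 of replicate 1 lay between the WT Tfh signals of 486 and 366. Leaving out WT Th1 replicate 1 ended the Th1 call (0.81, adjusted p = 0.16), as did leaving out Rictor-null Th1 replicate 1 (adjusted p = 0.153) or 2 (adjusted p = 0.121).

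The genotype effects on Rb1cc1 differed between the cell types by -1.61 ± 0.333 (Tfh minus Th1, limma adjusted p = 0.0486), the lowest value of this interaction among all 11217 genes. It was the 1 member called for the interaction (2.7%). Over all genes 0.82% had a higher and 0.392% a lower effect in Tfh than in Th1 cells. With both Rictor-null Tfh replicate 2 and replicate 1 of WT Th1 left out, the pair that stood apart and that holds the lowest Rb1cc1 signals (179 and 183), the value was -0.97 (adjusted p = 0.00847). Leaving out WT Tfh replicate 1 or 2 gave adjusted p of 0.241 and 0.1, Rictor-null Th1 replicate 1 or 2 gave 0.212 and 0.162, and WT Th1 replicate 1 or 2 gave 0.135 and 0.074. Over the 8 arrays left out in turn the interaction ran from -2.07 to -1.14. With the mean of the Rb1cc1 probe sets, which includes the brightest, the interaction was -0.74 (adjusted p = 0.0464). The Th1 rise was then 0.50 (adjusted p = 0.0123) and the WT cell type difference 0.36 (adjusted p = 0.0433). Median centring, no filter, a filter on all 8 arrays, a pseudocount of 1 and the replicate block each ended the interaction call. A fit without the filter also ended the Th1 call. When every probe set was tested on its own, the interaction on the brightest had an adjusted p of 0.0743.

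The other Rb1cc1 probe sets did not have this pattern. The second read 231 and 224 on the WT and 240 and 277 on the Rictor-null Tfh arrays, and 270 and 258 on the WT and 271 and 271 on the Rictor-null Th1 arrays. Its Th1 difference was 0.04 (limma adjusted p = 0.796) and its interaction was 0.13 (adjusted p = 0.501), with the sign opposite to that of the brightest. The remaining, dim probe set was not tested, and its highest value, 52.0, lay in WT Th1, the group that was lowest on the brightest probe set. The change in Rb1cc1 therefore rests on a single probe set.

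**Figure D2:**
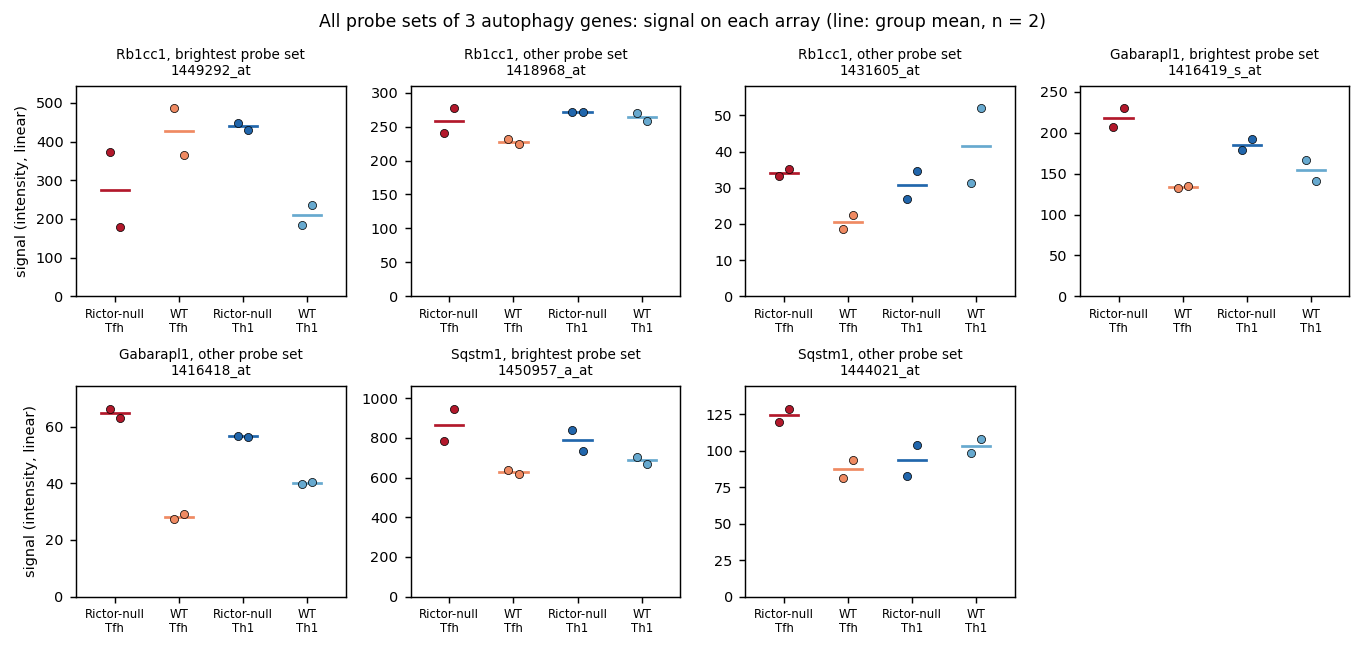
Linear signal on each array (points) with the group mean (line, n = 2) for all probe sets of Rb1cc1, Gabarapl1 and Sqstm1. Both Gabarapl1 probe sets put Rictor-null Tfh highest and WT Tfh lowest, whereas the low WT Th1 values of Rb1cc1 on its brightest probe set are not seen on the other bright one.

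Becn1, which encodes Beclin, had the brightest probe set of the lipid kinase complex. The signals were 971 and 896 on the WT and 895 and 731 on the Rictor-null Tfh arrays, and 778 and 844 on the WT and 973 and 1010 on the Rictor-null Th1 arrays. As on the brightest Rb1cc1 probe set, the Rictor-null mean was below WT in Tfh cells (-0.20, limma adjusted p = 0.16) and above it in Th1 cells (0.28, adjusted p = 0.0703). Neither passed, and the interaction was -0.48 with an adjusted p of 0.105. The second Becn1 probe set ran otherwise, at 0.19 in Tfh and -0.01 in Th1 cells, while a dimmer one (50.7 to 63.7 in Tfh cells) had the signs of the brightest, at -0.08 and 0.12. None of these 3, the Becn1 probe sets that passed the filter, was called in either cell type with all 8 arrays. Without Rictor-null Tfh replicate 1 the Tfh difference of the brightest was -0.34. That value rests on the 731 of replicate 2 alone, an array of the pair that stood apart. Replicate 1, at 895, lay next to the lower WT Tfh array, at 896. Pik3c3, the lipid kinase, was 0.20 above WT in Th1 cells with an adjusted p of 0.0517, and -0.01 from it in Tfh cells.

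Among the 9 tested conjugation genes 0 passed the limma test in any of the 5 comparisons. These are Atg3, Atg4a, Atg4b, Atg4d, Atg5, Atg7, Atg10, Atg12 and Atg16l1, the enzymes, proteases and scaffold that attach ATG8 proteins to lipid. Atg3, which performs the last transfer and is the brightest, read 1203 and 1185 on the WT and 1176 and 1168 on the Rictor-null Tfh arrays, and 1236 and 1282 on the WT and 1231 and 1218 on the Rictor-null Th1 arrays. Its genotype difference was -0.03 in Tfh cells (95% interval -0.15 to 0.09) and -0.04 in Th1 cells (-0.16 to 0.08). The whole set ran from -0.03 to 0.16 in Tfh cells and from -0.09 to 0.19 in Th1 cells.

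Pink1, a kinase that marks damaged mitochondria, read 575 and 524 on the WT and 604 and 533 on the Rictor-null Tfh arrays, and 519 and 568 on the WT and 644 and 590 on the Rictor-null Th1 arrays. Its difference was 0.05 in Tfh and 0.17 in Th1 cells (limma adjusted p = 0.206), and the Tfh groups overlapped. The transcription factor gene Tfeb read 133 and 137 on the WT and 121 and 125 on the Rictor-null Tfh arrays, and 142 and 132 on the WT and 128 and 134 on the Rictor-null Th1 arrays. It was -0.11 ± 0.0581 from WT in Tfh cells (adjusted p = 0.238) against -0.05 in Th1 cells. The arrays measure RNA, so neither the activity of TFEB nor the rate of autophagy was measured.

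Between cell types, most differences of the autophagy genes lay below 0, and so did most over all genes. In WT Tfh against WT Th1 cells 31 of the 37 differences were below 0 and 6 above (16.2%, against 34.3% above 0 over all genes), with a median of -0.09 against -0.06. Rb1cc1 was higher in Tfh cells and Atg101 and Gabarapl2 were lower, which is 2.7% and 5.41% of the 37. Over all genes 3.09% were higher and 11.6% lower. In Rictor-null cells 29 differences were below 0 and 8 above (21.6%, against 45.6% above 0 over all genes). The median was -0.07 against -0.01. Wipi2 and Bnip3 were higher in Rictor-null Tfh cells and Pik3c3 and Atg9a lower, each 5.41% of the 37. Over all genes 3.27% were higher and 6.45% lower. At an unadjusted p under 0.05, 9 of the 37 (24.3%) passed in each genotype, against 33.7% of all genes in WT and 24.4% in Rictor-null cells.

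**Figure D3:**
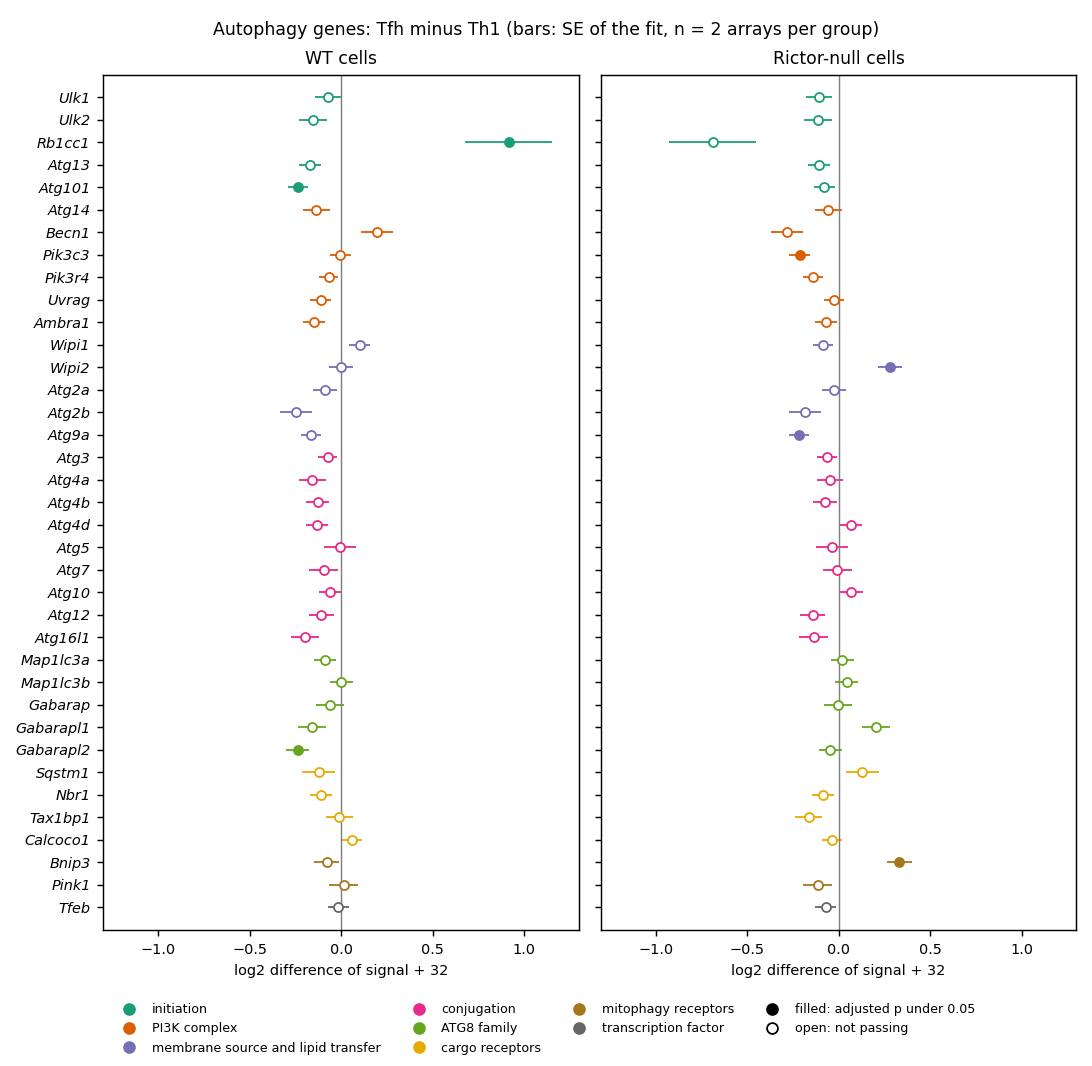
Log2 difference, Tfh minus Th1, of signal plus 32 for the 37 tested autophagy genes in WT cells (left) and Rictor-null cells (right), with the SE of the fit as bars (n = 2 arrays per group). Filled points had an adjusted p under 0.05, which holds for 3 genes in WT cells and 4 in Rictor-null cells.

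Among the WT lineage differences, Rb1cc1 was 0.92 higher in Tfh cells (1.89-fold, limma adjusted p = 0.0297), which uses the same low WT Th1 arrays as its genotype difference. Its other probe sets had the opposite sign. The second gave -0.19 (limma adjusted p = 0.103 over probe sets), and the dim, untested one -0.47. Leaving out any 1 of the WT or Rictor-null Th1 arrays, or either WT Tfh array, ended the Rb1cc1 call. So did a fit without the filter. Atg101 was -0.23 ± 0.0559 from Th1 (adjusted p = 0.023). It lost the call after quantile normalization (0.096), without any 1 WT array and without both arrays that stood apart. Gabarapl2, an ATG8 gene, read 989 and 1026 on the WT and 1012 and 1031 on the Rictor-null Tfh arrays, and 1224 and 1162 on the WT and 1104 and 1008 on the Rictor-null Th1 arrays. WT Th1 was its high group, and the WT difference was -0.24 ± 0.0629 (adjusted p = 0.0327). That call ended when any of 4 arrays was left out, and when both arrays that stood apart were. It also ended after quantile normalization (adjusted p = 0.0668), with a pseudocount of 1 (0.056), the mean of probe sets (0.0827) or the replicate block (0.0554). The other Gabarapl2 probe set gave -0.11 (adjusted p = 0.374). The second, dimmer Gabarapl1 probe set was also lower in WT Tfh than in WT Th1 cells (-0.26, limma adjusted p = 0.0208 over probe sets). The brightest Gabarapl1 probe set, at -0.16, did not pass (adjusted p = 0.173).

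Among the lineage differences in Rictor-null cells, Bnip3 was the largest that passed. Its product is a mitochondrial receptor that binds ATG8 proteins. Its dim probe set, the lowest of the 37, read 44.6 and 45.2 on the WT and 52.3 and 62.7 on the Rictor-null Tfh arrays, and 50.7 and 47.9 on the WT and 36.4 and 41.8 on the Rictor-null Th1 arrays. Rictor-null Tfh was its high group and Rictor-null Th1 its low one. The difference between them was 0.33 ± 0.069 (1.26-fold on the scale with 32 added, limma adjusted p = 0.0131), which understates the change of so dim a gene. Leaving out Rictor-null Tfh replicate 2 ended the call (0.25, adjusted p = 0.0579), as did leaving out replicate 1 of Rictor-null Th1 (0.28, adjusted p = 0.122). Its genotype difference was 0.22 in Tfh cells (adjusted p = 0.0634) against -0.19 in Th1 cells (adjusted p = 0.106), and the interaction was 0.41 (adjusted p = 0.0797).

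Wipi2 was 0.28 ± 0.0659 higher in Rictor-null Tfh than in Rictor-null Th1 cells (limma adjusted p = 0.0232), on the same Rictor-null Tfh arrays as its genotype difference, and 0.00 apart in WT cells. Leaving out either Rictor-null Th1 array (adjusted p = 0.158 and 0.0689) or Rictor-null Tfh replicate 2 (0.0852) ended this call, as did either WT Tfh array (0.0508), array weights (0.0552), a fit of only the groups compared (0.0572) and the mean of its probe sets, with which the difference was 0.16 (0.0727). Pik3c3 read 93.1 and 101 on the WT and 95.3 and 96.4 on the Rictor-null Tfh arrays, and 98.6 and 95.7 on the WT and 114 and 119 on the Rictor-null Th1 arrays. Rictor-null Th1 was the high group, with -0.21 ± 0.0573 between the Rictor-null groups (adjusted p = 0.0414). Any 1 array left out ended that call (adjusted p between 0.0572 and 0.181), as did quantile normalization (0.0762), array weights (0.114), the replicate block (0.0705) and a fit of only the groups compared (0.125). Atg9a, the transmembrane protein of the vesicles that seed the membrane, read 82.0 and 81.6 on the WT and 88.1 and 87.4 on the Rictor-null Tfh arrays, and 97.4 and 93.3 on the WT and 110 and 104 on the Rictor-null Th1 arrays. The Th1 arrays were above the Tfh arrays in both genotypes, with a Tfh minus Th1 difference of -0.22 ± 0.0551 (adjusted p = 0.0337) in Rictor-null and -0.16 (adjusted p = 0.0696) in WT cells. The Rictor-null call ended with any of 5 arrays left out, and under the same 4 settings as for Pik3c3 (adjusted p of 0.0604 to 0.124). Leaving out both arrays that stood apart ended the calls of Pik3c3 and Atg9a as well.

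**Figure D4:**
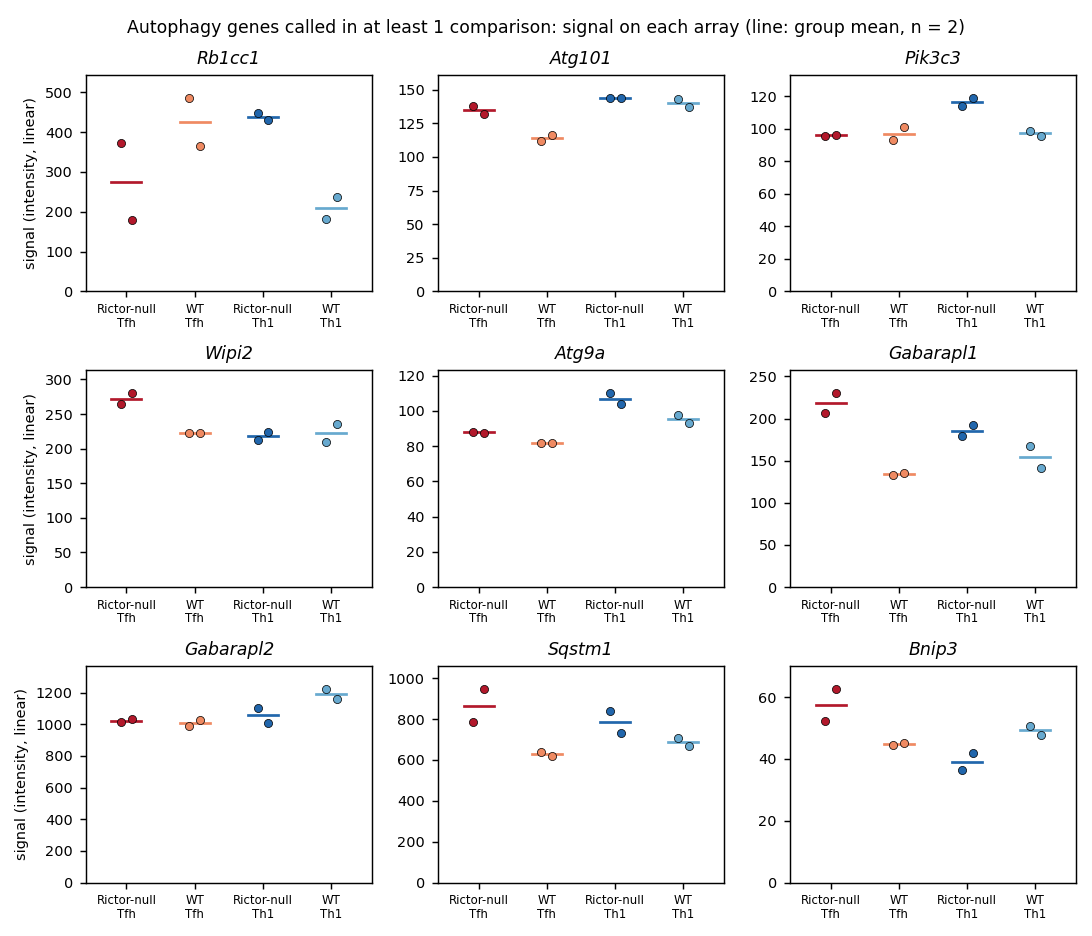
Linear signal on each array (points) with the group mean (line, n = 2) for the 9 autophagy genes called in at least 1 comparison, each on its brightest probe set and its own axis from 0. Gabarapl1 and Sqstm1 are highest in Rictor-null Tfh, and Rb1cc1 spans 179 to 372 within that group.

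The remaining 28 genes were called in none of the 5 comparisons on their brightest probe sets. Their genotype differences ran from -0.20 to 0.18 in Tfh and from -0.10 to 0.28 in Th1 cells, and their Tfh minus Th1 differences from -0.25 to 0.19 in WT and from -0.28 to 0.07 in Rictor-null cells. Besides those named above, they include Ulk2 and Atg13 of the ULK1 complex, Atg14, Pik3r4, Uvrag and Ambra1 of the lipid kinase complex, and Atg2b. Apart from the dim Map1lc3b probe set above, dimmer probe sets of Tax1bp1 and Ulk2 were called between cell types. That of Tax1bp1 was higher in WT Tfh than in WT Th1 cells (0.32, limma adjusted p = 0.0358 over probe sets), against -0.01 on its brightest. That of Ulk2 was lower in Rictor-null Tfh than in Rictor-null Th1 cells (-0.28, adjusted p = 0.0401), against -0.11 on its brightest.

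A further 64 genes that act beside the core machinery, in autophagosome formation, cargo selection, fusion and the lysosome, were listed, and 58 of them were tested. In Tfh cells 8 rose without Rictor (13.8%) and 0 fell, near the 11.3% and 2.31% of all genes, with 5 of the 8 among the 20 tested genes of the lysosome and the TFEB relatives. The 4 with the smallest p were all lysosomal: Ctsl and Ctsz, which encode cathepsin proteases, Lamp2, a membrane protein of the lysosome, and Gla, which cleaves glycolipids. The other 4 were the fusion factor Ykt6, the membrane-bending Sh3glb1, the TFEB relative Tfe3 and Atg16l2. In Th1 cells 6 rose (10.3%) and 2 fell (3.45%), against 7.55% and 2.97% of all genes.

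Ctsl read 93.7 and 82.9 on the WT and 153 and 160 on the Rictor-null Tfh arrays, and 109 and 109 on the WT and 99.2 and 98.9 on the Rictor-null Th1 arrays. Only Rictor-null Tfh cells stood high. The genotype difference was 0.65 ± 0.0608 in Tfh cells (limma adjusted p = 7.08e-05) against -0.10 in Th1 cells (adjusted p = 0.327), and these effects differed by 0.75 ± 0.0859 (adjusted p = 0.00345). Ctsz was 0.33 ± 0.0582 above WT in Tfh cells (adjusted p = 0.00394).

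Lamp2 and Gla rose in both cell types. Lamp2 read 204 and 182 on the WT and 279 and 246 on the Rictor-null Tfh arrays, and 175 and 190 on the WT and 254 and 265 on the Rictor-null Th1 arrays, with differences of 0.39 (limma adjusted p = 0.00773) and 0.44 (adjusted p = 0.00324). Gla read 53.3 and 43.4 on the WT and 69.2 and 65.0 on the Rictor-null Tfh arrays, and 55.4 and 50.1 on the WT and 93.3 and 98.5 on the Rictor-null Th1 arrays, with 0.30 (adjusted p = 0.0182) and 0.59 (adjusted p = 0.000294). On both genes each Rictor-null array lay above each WT array. Npc2, a cholesterol carrier of the lysosome, fell in Th1 cells from 3927 and 3934 to 2958 and 3131, a difference of -0.37 ± 0.0709 (adjusted p = 0.00741). In Tfh cells it was 3345 and 3850 against 3273 and 3347, and the effects differed by 0.48 ± 0.1 (adjusted p = 0.0492). Rtn3, a receptor for breakdown of the endoplasmic reticulum, rose by 0.26 ± 0.06 in Th1 cells (adjusted p = 0.0174).

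Between cell types, 3 of the 58 further genes were higher (5.17%) and 10 lower (17.2%) in WT Tfh than in WT Th1 cells, against 3.09% and 11.6% of all genes. Among them Tecpr1 (-0.31, limma adjusted p = 0.0223) and Tex264 (-0.26, adjusted p = 0.0238) were lower and Atp6v1a, a subunit of the proton pump, was higher (0.25, adjusted p = 0.0191). Mitf, a TFEB relative, is 1 of the 10 at -0.31, but it was above the array median on only 3 arrays, all Th1, so it passed the filter through the cells where it is high and its call is no support. In Rictor-null cells 3 were higher (5.17%) and 1 lower (1.72%), against 3.27% and 6.45% of all genes. Ctsl (0.52), Atp6v1a (0.34) and Sh3glb1 (0.31) were higher and Gla (-0.37) was lower in Tfh cells, with adjusted p of 0.000374, 0.00373, 0.0176 and 0.00854.

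**Figure D5:**
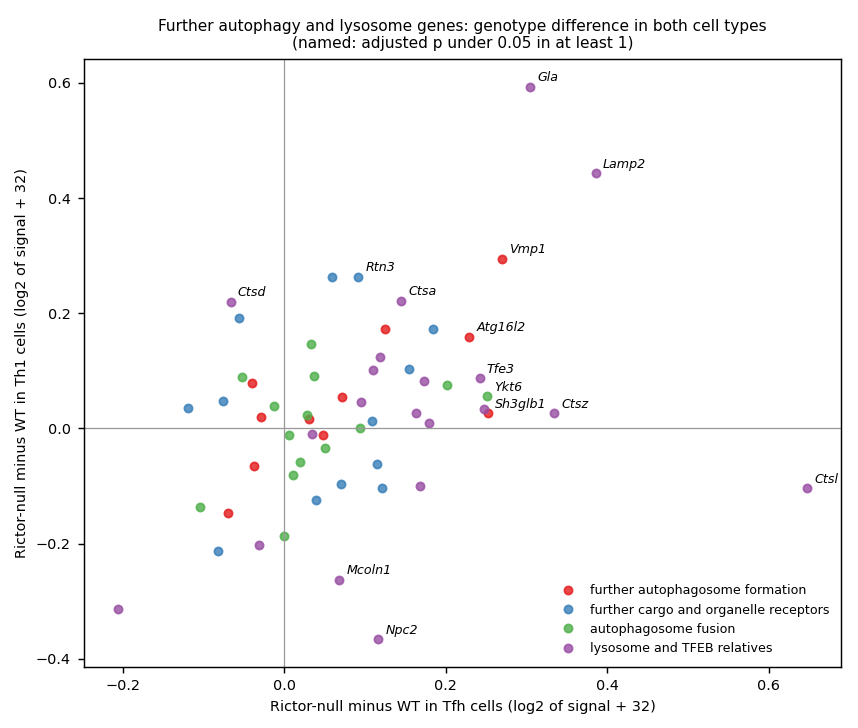
Log2 difference, Rictor-null minus WT, in Tfh cells (horizontal axis) against Th1 cells (vertical axis) for the 58 further autophagy and lysosome genes, 1 point per gene, coloured by list. Genes that passed the test in at least 1 of both cell types are named: Ctsl lies at 0.65 and -0.10, while Lamp2 and Gla are above 0 on both axes.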

How the data were processed

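Affymetrix Mouse Genome arrays of 8 samples were analysed from the authors' deposited table of 45037 probe set signals, an intensity on a linear scale. Per the submitters' processing notes MAS5 and RMA were used, with versions, roles and order not stated there. The number of arrays limits the precision. Probe sets brighter than the array median on 2 or more of the 8 arrays were used, 19671 of them with 1 gene symbol. The brightest per gene by mean log2 signal gave 11217 genes. Log2 of signal plus 32 was fitted with 1 mean per group in limma 3.58.1 (R 4.3.3; residual df 4, prior df 6.7), and the fit was tested on simulated data. By exact permutation 2 arrays against 2 cannot give a two-sided p below 0.333. Replicates are separate pools of mice.

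All 5 comparisons were genotype in each cell type, cell type in each genotype, and their interaction. Comparisons share arrays. Promoter windows came from RefSeq on GRCm38.p6. Named with all values were the members called in any comparison and the brightest other member of each role, plus up to 4 called genes of the further list per comparison with the smallest p. The members, lists and alternatives were chosen with earlier results of these data known. The main fit did not pair samples by replicate number. Alternatives covered scaling, filter, pseudocount, probe set choice, array weights, the arrays fitted and a replicate block.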

Additional observations from a re-analysis of the deposited data

Results flagged for a closer look

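For 3 genes and 1 further probe set the genotype effect (Rictor-null minus WT) differed between Tfh and Th1 cells by the interaction test in limma. The difference of effects was -1.61 for Rb1cc1 (adjusted p = 0.0486), on 1 of its 3 probe sets. It was 0.75 for the protease gene Ctsl (adjusted p = 0.00345), which rose in Tfh cells, and 0.48 for the cholesterol carrier gene Npc2 (adjusted p = 0.0492), which fell in Th1 cells. For Ctsl and Npc2, unlike the autophagy genes, alternative settings and other probe sets were not examined, and the Npc2 value was at the threshold. The second probe set of Gabarapl1 had a difference of 0.39 (adjusted p = 0.0464 over probe sets), with a rise in both cell types that was larger in Tfh cells. Its WT Tfh signals lay below the array median.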

How the results depend on the processing

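None of the 13 calls of single autophagy genes changed direction in 246 recomputed values. Of these, 154 stayed called and 92 lost the call. The rise of Gabarapl1 in Tfh cells was the only call kept by every alternative run.

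The counts of called autophagy genes were 4 (Tfh, genotype), 1 (Th1, genotype), 3 (WT, cell type), 4 (Rictor-null, cell type) and 1 (interaction). With 1 array left out in turn, they ranged from 1 to 8, 0 to 5, 0 to 8, 0 to 5 and 0 to 5. The lone array left in a group was assumed to vary like the others. With both Rictor-null Tfh replicate 2 and replicate 1 of WT Th1 left out, they were 2, 3 and 1 for the first 3 of these. Other settings gave for Th1 genotype 2 (median centring), 3 (mean of probe sets), 3 (array weights) and 2 (only the groups compared). For WT cell type they gave 1 (quantile normalization), 7 (array weights) and 7 (only the groups compared). For Rictor-null cell type they gave 2 (quantile normalization), 1 (array weights) and 1 (only the groups compared). For the interaction they gave 2 with the mean of probe sets and 0 with median centring, without a filter, with a filter on all 8 arrays and with a pseudocount of 1.

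Samples with the same replicate number did not deviate together (correlations from -0.514 to 0.276). With 2 arrays per group this cannot show whether pools with the same number came from the same mice. The labels state no pairing, and the main fit used none. With the replicate number as a block the counts were 3, 1, 2, 2 and 0.

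Quantile normalization lowered the share of rises among all called genes from 83% to 63.1% in Tfh and from 71.8% to 55.4% in Th1 cells, and raised that of higher genes from 21% to 40.2% in WT cell types and from 33.7% to 44.5% in Rictor-null ones, where median centring gave 23.5%. The counts over all genes with 1 array left out ranged from 456 to 2839 (1528 with all arrays), 580 to 1775 (1180), 198 to 2678 (1653), 397 to 1660 (1090) and 27 to 1614 (136). The causes were not tested. With 2 arrays per group, small changes of dim genes were not detectable.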
